A study of Mus musculus with 4 samples.

Results

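Postn fibroblasts are a set of mouse thymic fibroblasts marked by Postn, Fcgr2b, Ltc4s and Gfra2, and 572 of the 13981 barcodes called as cells belonged to it. Members were chosen from their own counts of unique molecular identifiers (UMIs), the tags that count captured transcripts. A cell entered with more than 1000 detected genes, under 20% mitochondrial UMIs, at least 3 UMIs of Pdgfra, Col1a1 and Col1a2 together, and 0 UMIs of Epcam, Pecam1 and Ptprc. Of the 10245 cells that passed the first 2 limits, 2077 were fibroblasts by the gene criteria. A fibroblast was a member when Postn, Fcgr2b, Ltc4s and Gfra2 summed to at least 3 UMIs and exceeded the sums of 2 other sets of 4 genes. These were Bmper, Inmt, Penk and Gdf10, which marked 748 Bmper fibroblasts, and Pi16, Fndc1, Pcolce2 and Sfrp2, which marked 432 Pi16 fibroblasts. The other 325 fibroblasts fell in no set.

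Fibroblasts build the capsule, septa and perivascular sheaths of the thymus, lay down its matrix, and supply epithelial cells with growth factors. Capsular fibroblasts carry Dpp4 and Smpd3, and medullary fibroblasts carry Ptn. Postn encodes periostin, a matricellular protein that binds collagen and fibronectin. Fcgr2b encodes the inhibitory receptor for IgG, Ltc4s the enzyme that makes leukotriene C4, and Gfra2 the neurturin receptor. Foxn1, the gene altered in these mice, is the master transcription factor of thymic epithelium and is not a fibroblast gene.

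The single-cell libraries were made from CD45-negative thymic cells of C57BL/6 mice at 6 months of age, without treatment. There were 2 wild-type libraries (WT 1 and WT 2) and 2 from mice homozygous for a LacZ allele of Foxn1 (Z/Z 1 and Z/Z 2), a hypomorphic allele present in every cell of the animal. The protocol describes thymi of several mice digested together, so a library is a pool, and whether the 2 libraries of a group came from separate pools is not given; the p-values measure only the spread between these libraries. The mice are called female in the protocol and male in the sample characteristics. Members held 1 UMI of Xist in all, while Ddx3y, from the Y chromosome, had 107 to 412 UMIs per library, and Foxn1 had 0 to 3.

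Called barcodes per library ranged from 1192 to 5558, and kept cells from 474 to 4636. Libraries of the same genotype shared barcodes: 202 between WT 1 and WT 2 and 249 between Z/Z 1 and Z/Z 2, against 0 to 6 between genotypes. Of the 55 members in WT 2, 23 had a barcode that was also called in WT 1. None of those WT 1 barcodes passed the limits, and their median depth there was 691 UMIs against 21093 UMIs in WT 2. Members in the other libraries had no shared barcode. Free RNA accounted for an estimated 2.02% to 2.75% of member UMIs.

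Postn fibroblasts made up a larger share of fibroblasts in WT than in Z/Z libraries. In WT 1, 210 of 441 fibroblasts were members (47.6%, 95% exact binomial interval 42.9% to 52.4%), and in WT 2, 55 of 128 (43.0%, 34.3% to 52.0%). In Z/Z 1, 229 of 1014 were members (22.6%, 20.0% to 25.3%), and in Z/Z 2, 78 of 494 (15.8%, 12.7% to 19.3%). The intervals cover counting error only. The mean share was 45.3% ± 3.29 (SD, n = 2) in WT and 19.2% ± 4.80 (n = 2) in Z/Z, a difference of -26.1 percentage points. Both WT libraries lay above both Z/Z libraries, but 2 against 2 cannot give an exact two-sided permutation p under 0.333, the value obtained. Without the shared barcodes, the difference was -26.0 points. Bmper fibroblasts took 14.5% and 21.1% of WT fibroblasts and 42.9% and 44.9% of Z/Z fibroblasts, and both sets moved in opposite directions, as parts of 1 total can. Pi16 fibroblasts overlapped between genotypes, at 28.8% and 16.4% of WT fibroblasts and 15.7% and 25.3% of Z/Z fibroblasts. Digestion and sorting can also set these shares.

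**Figure D1:**
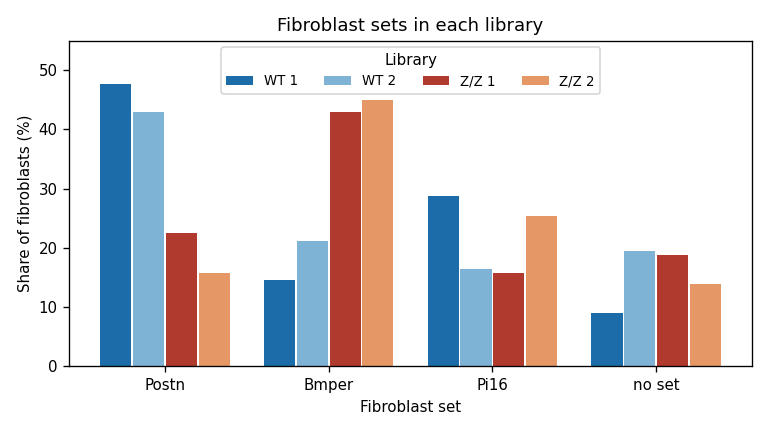
Share of fibroblasts (%) in each set, 1 bar per library. Postn fibroblasts stood at 47.6% and 43.0% in the WT libraries and at 22.6% and 15.8% in the Z/Z libraries, while Bmper fibroblasts had the opposite order.

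Some members lay at the edge of the rule. Exactly 3 UMIs of the 4 genes were held by 20, 5, 24 and 12 members in WT 1, WT 2, Z/Z 1 and Z/Z 2. Just outside, 6, 9, 22 and 8 fibroblasts had 2 such UMIs and met every other condition, while 18, 8, 23 and 6 fibroblasts had 3 or more but were outnumbered by another set. The median member had 13914 and 13718 UMIs in WT and 10418 and 10623.5 in Z/Z. When all kept cells were thinned to 5000 UMIs each, without those that had fewer, and the gene criteria were applied again, the difference in share was -17.9 points. The fibroblasts then numbered 447, 131, 927 and 579 in WT 1, WT 2, Z/Z 1 and Z/Z 2, so they were not all the same cells.

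The 4 genes of the rule were not present in every member, and their mix differed by library. These values chose the members and are given as a description. Postn averaged 17.6 and 17.3 UMIs per member in the WT libraries, 13.7 for Z/Z 1 and 7.87 for Z/Z 2. Ltc4s averaged 4.37, 4.16, 4.64 and 5.27 UMIs in WT 1, WT 2, Z/Z 1 and Z/Z 2, which in the shallower Z/Z members was a larger share of all UMIs (333 and 305 CPM in WT, 485 and 524 CPM in Z/Z). Fcgr2b averaged 1.29 and 1.11 UMIs in WT and 0.432 and 0.321 in Z/Z. Gfra2 averaged 1.90 and 1.47 UMIs in WT and 0.572 and 0.756 in Z/Z. Per total UMIs, Fcgr2b was at 98.4 and 81.3 CPM in WT and 45.2 and 31.8 CPM in Z/Z, and Gfra2 at 145 and 108 CPM in WT and 59.8 and 75.2 CPM in Z/Z, so both receptor genes were lower in both Z/Z libraries. A Gfra2 UMI was held by 69.0% and 61.8% of WT members and by 28.4% and 30.8% of Z/Z members. After thinning to 5000 UMIs they were 42.2%, 34.0%, 17.1% and 19.7%. Only 1 of the 4 genes was detected in 8.57% and 9.09% of WT members but in 25.8% and 38.5% of Z/Z members. All 4 were detected in 23.3% and 7.27% of WT members and in 3.93% and 2.56% of Z/Z members.

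The label was checked against markers outside the rule. Lum, a general fibroblast gene, was at 820 to 1336 CPM in members. Lum, Col3a1 and Dcn, the 3 fibroblast markers, summed to 10512 to 12755 CPM in members, 14368 to 15920 CPM in Bmper and 8699 to 9281 CPM in Pi16 fibroblasts. Of the 3, Dcn was called lower than in Bmper fibroblasts and none higher, beside 5.76% and 5.11% over all genes. Against Pi16 fibroblasts 2 were higher and 1 lower, beside 19.8% and 19.1%. Ptn, the medullary fibroblast marker, stood at 3097 to 3501 CPM (UMIs scaled to a common total per sum, here with TMM factors) in members, against 5.12 to 36.1 CPM in Pi16 fibroblasts and 1260 to 2651 CPM in Bmper fibroblasts. Dpp4 and Smpd3, the capsular markers, were together at 3.30 to 15.0 CPM in members and at 718 to 936 CPM in Pi16 fibroblasts. The sums of markers here and below are CPM of all UMIs, without TMM factors. The 6 epithelial markers summed to 14.4 to 59.0 CPM, the 8 thymocyte markers to at most 50.3 CPM, and the 6 B cell or myeloid markers to 4.53 to 8.38 CPM. In the adipocyte list Adipoq was at 0. The 6 Schwann cell markers summed to 34.1, 9.58, 25.1 and 48.6 CPM in members of WT 1, WT 2, Z/Z 1 and Z/Z 2, with Gfap at 0, against 3.98 to 22.1 CPM in Bmper and at most 2.74 CPM in Pi16 fibroblasts. Ngfr, of this list, was called higher than in Pi16 fibroblasts, but not than in Bmper fibroblasts (log2 1.37, edgeR adjusted p = 0.083). The 5 endothelial markers summed to 79.0 to 119 CPM in members, above the 30.4 to 45.0 CPM of Bmper and the 7.02 to 13.4 CPM of Pi16 fibroblasts, and the 2 of them that were tested, Emcn and Plvap, were called higher than in both sets. The part of endothelial and Schwann cell RNA in the results was not tested.

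Pericyte and smooth muscle markers had the highest sums of the non-fibroblast lists. Rgs5, Kcnj8, Vtn, Acta2, Myh11 and Cspg4 mark the mural cells that wrap vessels, and none of the 6 was at 0 in members. Their summed level was 235 and 198 CPM in WT members and 882 and 631 CPM in Z/Z members, against 73.5 and 62.5 CPM in WT and 183 and 109 CPM in Z/Z Bmper fibroblasts, so the sum was higher in Z/Z in both sets. None of the 6 passed the test that the genotype difference was unlike in the 2 sets, with a median difference of log2 effects of 0.65. On simulated data that test recovered 8% of genes changed by 1 and 68% of those changed by 2 on the log2 scale. It therefore cannot show that the 2 sets changed alike. At least 3 UMIs of these genes were held by 41.0% and 41.8% of WT members and by 78.2% and 62.8% of Z/Z members, although Z/Z members were shallower. Vtn UMIs were found in 64.3% and 58.2% of WT members and in 84.7% and 66.7% of Z/Z members. Kcnj8 UMIs were found in 18.1% and 23.6% of WT members and in 48.9% and 32.1% of Z/Z members. Rgs5 UMIs were in 0% to 10.9% of members per library and Acta2 UMIs in 1.82% to 8.73%, so Vtn was the most widely held of those given here. No Pdgfra UMI was found in 5.24% and 3.64% of WT members and in 12.2% and 19.2% of Z/Z members. Without the cells that held 3 or more such UMIs, 124, 32, 50 and 29 members were left in WT 1, WT 2, Z/Z 1 and Z/Z 2. The share of Postn fibroblasts was then 35.7% ± 3.41 in WT and 7.68% ± 0.323 in Z/Z (SD, n = 2), a difference of -28.1 points. With only fibroblasts that had a Pdgfra UMI, the difference was -29.0 points. These 2 alternatives were chosen after the data were seen. Beyond them, the part of the mural markers in the results below was not tested.

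**Figure D2:**
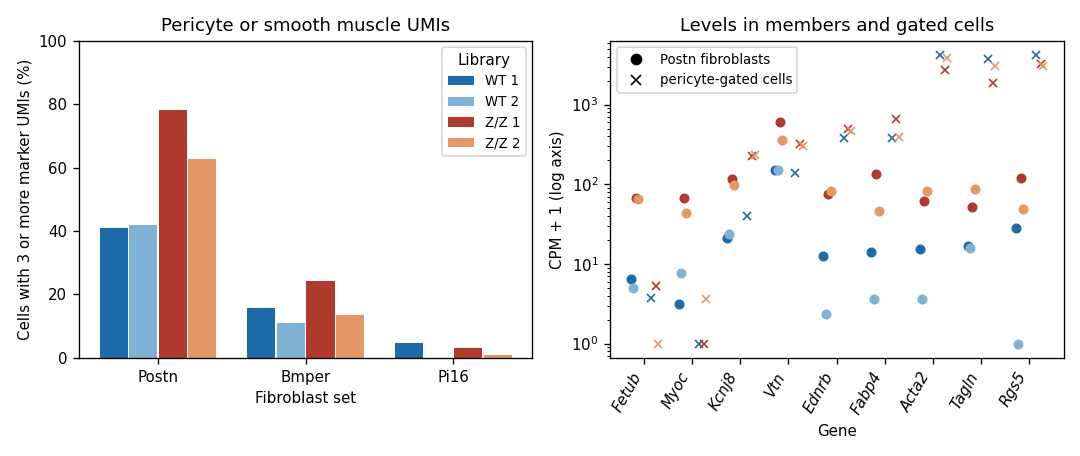
Left, the share of cells (%) with 3 or more UMIs of the 6 pericyte or smooth muscle markers, by set and library; it was 78.2% and 62.8% in Z/Z members. Right, levels (CPM + 1, log axis) in members (dots) and in pericyte-gated cells (crosses; WT 2, with 2 such cells, is left out), where Fetub and Myoc were lower in the gated cells than in Z/Z members and Acta2 and Rgs5 were higher. Members that met the pericyte gate were not taken out of the gated cells.

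To see how Z/Z members differed from WT members, UMIs were summed over the members of each library and compared with edgeR's quasi-likelihood test. Of 9948 genes tested, 166 (1.67%) passed an adjusted p of 0.05, 87 higher in Z/Z (0.875%) and 79 lower (0.794%). The 2 groups did not overlap for 45.9% of all genes tested. Without the shared barcodes, 43 were higher and 34 lower. Without the cells holding 3 or more pericyte or smooth muscle UMIs, 56 were higher and 38 lower among 6325 genes. That fit held only 50 and 29 members in Z/Z 1 and Z/Z 2. Whether a call lost there came from the smaller number of cells was not tested. With at least 1 Pdgfra UMI required, 71 were higher and 74 lower. Of the genes described next, Fetub, Myoc, Kcnj8, Timp3, Abca1, Cdh13, Ccnd1, Ccnd2, Gxylt2, Nrp1, Cd55 and Zbtb16 were called in every alternative in which they were tested, and each other called gene lost its call in at least 1. Myoc and Kcnj8 were not tested without the cells rich in pericyte UMIs, and Kcnj8 is itself one of the genes that select those cells.

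Fetub and Myoc were among the genes that rose most of those named by rule (at least 50 CPM in the higher group). Fetub, which encodes fetuin B, a protease inhibitor of the cystatin superfamily, was at 5.45 and 4.00 CPM in WT and at 65.7 and 63.7 CPM in Z/Z (log2 3.66 ± 0.34 SE, edgeR adjusted p = 0.00126). Myoc, which encodes the secreted protein myocilin, was at 2.18 and 6.66 CPM in WT and at 67.1 and 42.0 CPM in Z/Z (log2 4.05 ± 0.48, adjusted p = 0.00238). For both, every Z/Z library was far above every WT library. Pericyte-gated cells were defined by at least 10 UMIs of Rgs5, Kcnj8 and Vtn and none of Pdgfra or the excluded genes. Members that met this gate were not taken out of it, so gated cells and members can overlap. The gated cells of WT 1, Z/Z 1 and Z/Z 2 held Postn, a gene of the rule, at 425, 420 and 336 CPM. They held Fetub at 2.76, 4.26 and 0 CPM and Myoc at 0, 0 and 2.67 CPM. The Fetub log2 difference was 5.37 without the cells rich in pericyte UMIs; Myoc was too low to be tested there. Fetub UMIs were present in 21.8% and 28.2% of Z/Z members against 3.81% and 5.45% of WT members, and in 0% to 3.77% of Pi16 fibroblasts. Such shares were not counted in Bmper fibroblasts. Against Bmper fibroblasts edgeR called both genes higher in members, but DESeq2 called neither Fetub (log2 1.20, adjusted p = 0.12) nor Myoc (log2 1.42, adjusted p = 0.16). Neither was among the interaction calls given below, so their rise was not shown to be particular to members.

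Genes of mural cells and vessels rose in members together with the marker sum above. Kcnj8, the pore of a vascular potassium channel, was at 20.3 and 22.6 CPM in WT and at 114 and 98.1 CPM in Z/Z (log2 2.34 ± 0.26, edgeR adjusted p = 0.00181). Vtn, which encodes vitronectin, was at 152 and 151 CPM in WT and at 600 and 362 CPM in Z/Z (log2 1.68 ± 0.25, adjusted p = 0.00886), and was not called without the cells rich in pericyte UMIs (log2 0.56, adjusted p = 0.61), which the Vtn count itself had selected. Ednrb, an endothelin receptor, was at 11.6 and 1.33 CPM in WT and at 74.4 and 81.5 CPM in Z/Z (log2 3.16 ± 0.43, adjusted p = 0.00646), but was not called by DESeq2 (adjusted p = 0.078). It was found in 14.4% and 12.8% of Z/Z members and stood at 384 to 491 CPM in the pericyte-gated cells of these 3 libraries. Neither Kcnj8 nor Ednrb was tested without the cells rich in pericyte UMIs. Of the 6 mural markers, Kcnj8, Vtn and Acta2 passed the test, beside 0.875% called higher over all genes. The others did not: Myh11 (log2 0.92), Rgs5 (log2 2.27) and Cspg4 (log2 1.67).

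The contractile genes Acta2 and Tagln were higher in Z/Z members, but not with a Pdgfra UMI required. Acta2, smooth muscle actin, was at 14.5 and 2.66 CPM in WT and at 60.2 and 81.5 CPM in Z/Z (log2 2.67 ± 0.43, edgeR adjusted p = 0.013). Tagln, which encodes transgelin, was at 15.6 and 14.7 CPM in WT and at 51.1 and 86.6 CPM in Z/Z (log2 2.12 ± 0.34, adjusted p = 0.0129). Acta2 UMIs were present in 7.14% and 1.82% of WT members and 8.73% and 3.85% of Z/Z members, shares that overlapped, and DESeq2 did not call Acta2 (adjusted p = 0.10). With a Pdgfra UMI required, Acta2 (log2 1.19, edgeR adjusted p = 0.57) and Tagln (log2 0.94, adjusted p = 0.50) were not called. Neither was tested without the cells rich in pericyte UMIs. In the pericyte-gated cells Acta2 stood at 2702 to 4182 CPM. The contractile list had 14 tested genes, of which Acta2 and Tagln were higher and none lower, beside 0.875% and 0.794% over all genes. Its median log2 difference was 0.40, against -0.00 over all genes.

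**Figure D3:**
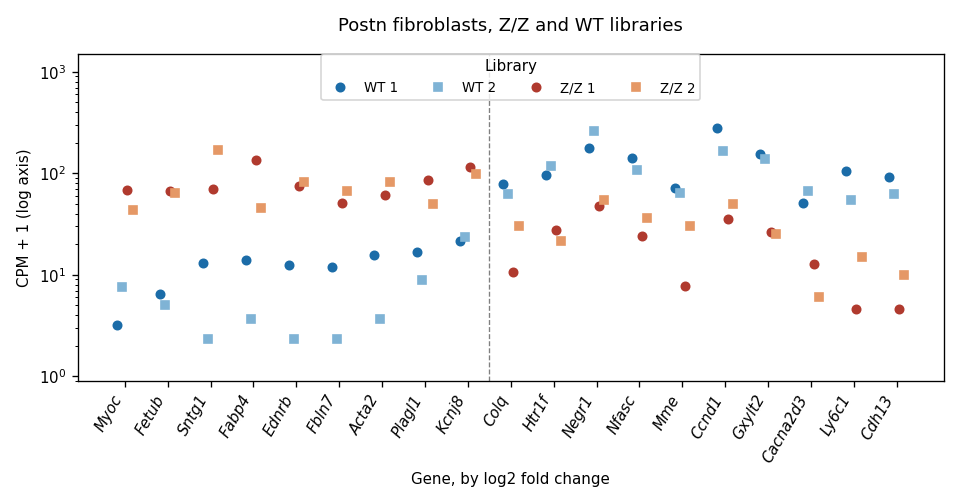
Levels in Postn fibroblasts (CPM + 1, log axis) of 9 named genes that were higher and 10 that were lower in Z/Z, ordered by log2 fold change, 1 symbol per library. Left of the dashed line both Z/Z libraries lie above both WT libraries, with Fetub at 65.7 and 63.7 CPM in Z/Z, and right of it below.

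Among lipid genes, Fabp4, Plin2 and Cd36 rose and Abca1 fell, and only the Abca1 call of these 4 held in all alternatives run. Fabp4, a fatty acid carrier of adipocytes and capillary endothelium, was at 13.1 and 2.66 CPM in WT and at 135 and 44.6 CPM in Z/Z (log2 3.23 ± 0.54, edgeR adjusted p = 0.0141). It was at 376 to 658 CPM in the pericyte-gated cells and was not called without the cells rich in pericyte UMIs (log2 1.58, adjusted p = 0.27), by DESeq2 (adjusted p = 0.14) or without Z/Z 1. Plin2, a lipid droplet coat protein, was at 100 and 52.0 CPM in WT and at 208 and 209 CPM in Z/Z, and Cd36, a fatty acid transporter, rose from 1.09 and 1.33 CPM to 16.4 and 7.64 CPM. Plin2 was not called without the cells rich in pericyte UMIs (adjusted p = 0.17), after thinning or without WT 2, nor Cd36 without the shared barcodes (adjusted p = 0.083), without WT 1 or without WT 2. Abca1, which exports cholesterol, fell from 239 and 278 CPM to 104 and 95.5 CPM (log2 -1.36 ± 0.20, adjusted p = 0.00939). The list of 17 tested lipid genes thus had 3 higher and 1 lower, beside 0.875% and 0.794% over all genes.

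Some matrix genes were called in each direction. Timp3, which encodes an inhibitor of metalloproteinases, was at 118 and 115 CPM in WT members and at 411 and 446 CPM in Z/Z members (log2 1.87 ± 0.19, edgeR adjusted p = 0.00174); it was at 1642 to 2160 CPM in the pericyte-gated cells. Adamts5, an aggrecan-cleaving protease, fell from 198 and 121 CPM to 57.5 and 67.5 CPM. Vcan, the proteoglycan versican, rose from 142 and 113 CPM to 275 and 313 CPM, and Sparcl1 from 1108 and 1156 CPM to 2059 and 2182 CPM. Fbln7, a fibulin, rose from 10.9 and 1.33 CPM to 49.7 and 66.2 CPM (log2 2.80 ± 0.46, adjusted p = 0.0141), but not by DESeq2 (adjusted p = 0.14). Mfap2 rose in the same comparison and Col4a5, a basement membrane collagen, was 1.56 higher on the log2 scale. Col13a1 was -2.23 on that scale. Neither Mfap2 nor Col13a1 was called by DESeq2 (adjusted p = 0.051 and 0.089) or without the shared barcodes, and Adamts5 was not called without the cells rich in pericyte UMIs (adjusted p = 0.089). Vcan was not called without WT 2, Sparcl1 without WT 1 or without WT 2, nor Col4a5 without WT 1 or without Z/Z 1. Among 22 tested collagens 1 was higher and 1 lower, beside 0.875% and 0.794% over all genes. Their median log2 difference was 0.47, against -0.00 over all genes. None of the 16 tested collagen-processing genes was called by edgeR or DESeq2 (median log2 difference 0.21). Of these 16, 5 had an unadjusted edgeR p under 0.05, beside 1360 of all 9948 genes.

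Among genes that fell, Cdh13 showed the largest drop of those named by rule. Cdh13, T-cadherin, was at 90.4 and 61.3 CPM in WT and at 3.65 and 8.92 CPM in Z/Z (log2 -3.87 ± 0.41, edgeR adjusted p = 0.00174). Its UMIs were present in 31.0% and 27.3% of WT members and in 2.62% and 5.13% of Z/Z members. Ccnd1, which encodes cyclin D1, was at 278 and 164 CPM in WT and at 34.7 and 48.4 CPM in Z/Z (log2 -2.49 ± 0.29, adjusted p = 0.00238), while Ccnd2 rose from 53.0 and 54.6 CPM to 131 and 155 CPM. Gxylt2, a glycosyltransferase that extends O-linked sugars on Notch, fell from 155 and 139 CPM to 25.5 and 24.2 CPM (log2 -2.56 ± 0.24, adjusted p = 0.00126). Cdh13, Ccnd1 and Gxylt2 passed the test without the cells rich in pericyte UMIs and with a Pdgfra UMI required. Ly6c1 fell from 104 and 53.3 CPM to 3.65 and 14 CPM, but not past the threshold in DESeq2 (adjusted p = 0.051). Its reads may be shared with its close copy Ly6c2, so the value is uncertain.

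Some genes for axon guidance and adhesion were lower as well. Nrp1, a semaphorin and VEGF co-receptor, was at 521 and 673 CPM in WT and at 243 and 262 CPM in Z/Z, and Unc5c, a netrin receptor, at 789 and 1079 CPM in WT and at 465 and 303 CPM in Z/Z. Robo2, a Slit receptor, was at 51.6 and 83.9 CPM in WT and at 21.4 and 7.64 CPM in Z/Z. Of the 24 tested genes of this list 4, with Cdh13 among them, were lower and none higher, beside 0.794% lower over all genes, with a median log2 difference of -0.34. Without the shared barcodes, or without WT 2, Unc5c and Robo2 were not called (without the barcodes, adjusted p = 0.059 and 0.083). The neural adhesion genes Nfasc and Negr1 fell too, from 140 and 108 CPM to 23.3 and 35.7 CPM and from 175 and 260 CPM to 47.0 and 53.5 CPM. Neither was called without the cells rich in pericyte UMIs.

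Secreted signals moved in both directions. Flt3l, the ligand of FLT3 on lymphoid and dendritic precursors, fell from 118 and 75.9 CPM to 19.2 and 31.8 CPM (log2 -2.06 ± 0.32, edgeR adjusted p = 0.0112). It was not called without WT 1. Mdk, midkine, rose from 46.9 and 52.0 CPM to 108 and 168 CPM. Inhba, the activin A subunit, rose from 42.9 and 33.3 CPM to 90.8 and 117 CPM, and Bmp6 from 0.726 and 0 CPM to 11.9 and 10.2 CPM. Without the shared barcodes Mdk (adjusted p = 0.058) and Bmp6 (adjusted p = 0.070) were not called, and Inhba was not called without the cells rich in pericyte UMIs (adjusted p = 0.11). Cxcl10 and Cxcl9, chemokines induced by interferon gamma, rose from 179 and 171 CPM to 664 and 369 CPM and from 93.7 and 33.3 CPM to 281 and 183 CPM. Neither chemokine was called without the shared barcodes, nor Cxcl10 after thinning. Cxcl9 was also not called by DESeq2 (adjusted p = 0.27). By edgeR it was not called without the cells rich in pericyte UMIs (adjusted p = 0.23) or with a Pdgfra UMI required (adjusted p = 0.15). In the interferon-stimulated list 0 of 29 tested genes passed, beside 1.67% over all genes, with a median log2 difference of 0.80. Of the 29, 16 had an unadjusted edgeR p under 0.05, beside 1360 of all 9948 genes, and DESeq2 called 1, Isg15. The epithelial and thymocyte growth factor list had 1 higher and 1 lower of 17, beside 0.875% and 0.794% over all genes. The complement regulator Cd55 fell from 111 and 81.3 CPM to 27.4 and 26.8 CPM (log2 -1.85 ± 0.26, adjusted p = 0.00876).

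Among transcription factors, Osr2 fell from 130 and 168 CPM to 50.2 and 65.0 CPM. Klf4 fell from 1028 and 1375 CPM to 524 and 659 CPM. The other 41 of 43 tested genes in that list were not called, beside 0.794% called lower over all genes. Without the cells rich in pericyte UMIs neither Osr2 (log2 -0.78, adjusted p = 0.40) nor Klf4 (log2 -0.73, adjusted p = 0.26) was called, and Klf4 was not called without the shared barcodes either (adjusted p = 0.083). Zbtb16, which glucocorticoids induce, fell from 110 and 107 CPM to 33.3 and 39.5 CPM (log2 -1.60 ± 0.24, edgeR adjusted p = 0.00923). Fzd1, a Wnt receptor, was the 1 gene called in the list of 17 tested Wnt and R-spondin genes (log2 -2.08), beside 0.794% called lower over all genes. Without the cells rich in pericyte UMIs Fzd1 was not called (edgeR adjusted p = 0.12). The antigen presentation list (23 tested), the lymphotoxin and NF-kB list (15), the eicosanoid list (13), the immediate early list (24) and the hypoxia and respiration list (26) had 0 called genes each by edgeR and by DESeq2. Over all genes, edgeR called 1.67%. At an unadjusted edgeR p under 0.05 the lists held 6, 2, 3, 6 and 3 genes in that order, beside 1360 of all 9948 genes.

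To describe what sets members apart from other fibroblasts, UMI sums of the 3 sets in the 4 libraries were fitted together with the library as a block. The sets were gated on 12 genes of these same cells, so genes that vary with those 12 differ by construction, and the 12 genes are left out of the counts. Against Bmper fibroblasts, 545 genes were higher (5.11%) and 614 lower (5.76%) of 10657 (10.9% in all). Against Pi16 fibroblasts, 2112 were higher (19.8%) and 2038 lower (19.1%), 38.9% in all. In both, 468 were higher (4.39%) and 444 lower (4.17%). The 2 comparisons share the Postn fibroblast sums.

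Hdac9, a histone deacetylase, was at 527, 399, 490 and 394 CPM in members of WT 1, WT 2, Z/Z 1 and Z/Z 2. It was at 9.29 to 98.1 CPM in Bmper and at 2.56 to 12.8 CPM in Pi16 fibroblasts. Every sum of members lay above every sum of the other sets. The log2 difference was 3.70 ± 0.36 against Bmper and 5.77 ± 0.42 against Pi16 fibroblasts (edgeR adjusted p = 2.7e-05 and 1.8e-07). Mmp9, a gelatinase, was at 168, 93.9, 160 and 287 CPM in members, at 3.91 to 44.8 CPM in Bmper and at 0 to 0.976 CPM in Pi16 fibroblasts. Mmp9 UMIs were held by 71.9%, 50.9%, 47.6% and 65.4% of members. Gpr176, an orphan receptor, was at 33.0 to 78.3 CPM in members and at 0.978 to 3.18 CPM in Bmper fibroblasts. Inhba, at 32.6 to 116 CPM, and the cationic amino acid transporter Slc7a2, at 63.5 to 154 CPM, were also above all sums of the other sets. Egln3, a prolyl hydroxylase of the hypoxia pathway, was at 45.1 to 56.1 CPM in members against 0.978 to 5.61 CPM in Bmper fibroblasts (log2 3.95 ± 0.40, adjusted p = 3.6e-05). The remaining genes named by rule were Rasgef1b, Tspan15, Serpina3g and Pdgfrl.

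Several genes of other fibroblasts were close to absent from members. Ogn, the proteoglycan osteoglycin, was at 5.22 to 16.4 CPM in members, at 428 to 472 CPM in Bmper and at 1491 to 2044 CPM in Pi16 fibroblasts. Ackr3, a scavenger receptor for CXCL12, was at 0 to 5.04 CPM in members and at 874 to 1017 CPM in Pi16 fibroblasts. Wt1 was at 0.456 to 13.8 CPM against 42.1 to 250 CPM in the others, and Fst, the activin antagonist follistatin, at 0 to 21.4 CPM against 104 to 350 CPM. Sult1e1, Hp, Cdh9 and Kcnc2 had at most 1.30 CPM in any library of members, and Ptx3 and Npr1 at most 3.78 CPM. Fst and Inhba therefore lay on opposite sides, with the antagonist low and the activin subunit high in members.

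**Figure D4:**
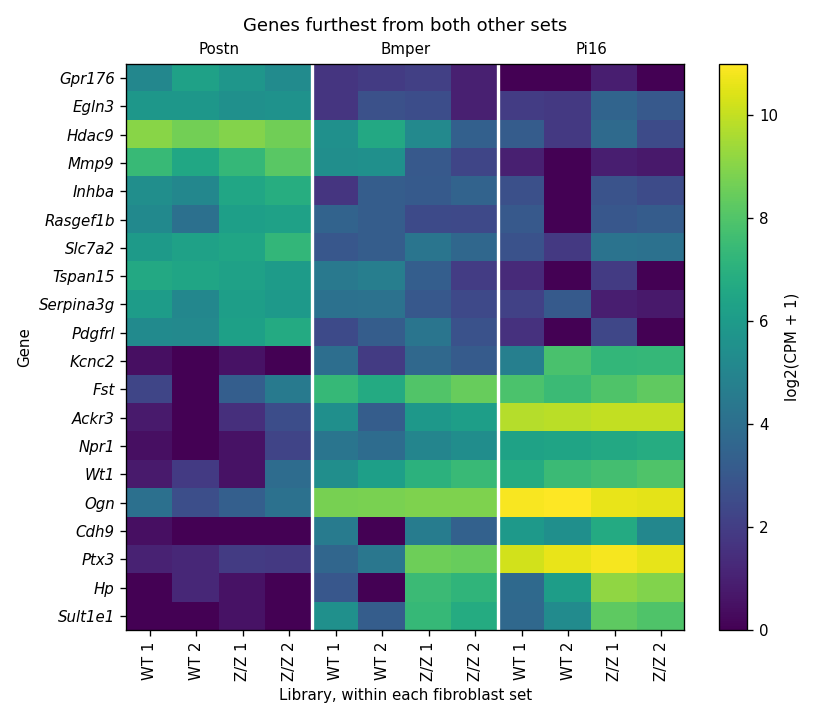
Levels as log2(CPM + 1) in the 12 sums (3 fibroblast sets by 4 libraries) of the 20 genes named by rule, 10 higher and 10 lower in Postn fibroblasts than in both other sets. Hdac9 is bright in the 4 Postn columns, at 394 to 527 CPM, and Ogn is dark there, at 5.22 to 16.4 CPM.

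Major histocompatibility genes of class I were higher in members. H2-Q7 was at 332, 292, 523 and 511 CPM in members and at 80.7 to 129 CPM in Bmper fibroblasts (log2 2.10 ± 0.20, edgeR adjusted p = 2e-05), with a log2 difference of 2.19 without the cells rich in pericyte UMIs. H2-D1 was at 1610 to 2470 CPM against 865 to 1093 CPM, and H2-K1 at 1566 to 2323 CPM against 925 to 1077 CPM. Of 23 tested antigen presentation genes, 8 were higher than in Bmper fibroblasts and 0 lower, beside 5.11% and 5.76% over all genes. Against Pi16 fibroblasts, 13 were higher and 3 lower, beside 19.8% and 19.1%. H2-Q6 and H2-Q7 are close copies whose reads may be split between them, so their values are uncertain.

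Growth factors for epithelium differed between the sets. Fgf10 was at 83.3 to 132 CPM in members and at 350 to 588 CPM in Bmper fibroblasts (log2 -2.11 ± 0.18, edgeR adjusted p = 8.9e-06), and Fgf7 at 10.4 to 30.2 CPM against 75.7 to 151 CPM. Igf1 was at 127 to 175 CPM against 353 to 506 CPM. Kitl, the ligand of KIT, was higher in members, at 264 to 429 CPM against 170 to 238 CPM in Bmper fibroblasts (log2 0.84 ± 0.14, adjusted p = 0.0018). Ptn was 0.79 ± 0.24 higher on the log2 scale (adjusted p = 0.048), and not past the threshold in DESeq2 (adjusted p = 0.093) or without the shared barcodes (adjusted p = 0.062), nor with any library but WT 2 left out. Of 18 tested genes in this list 4 were higher and 6 lower than in Bmper fibroblasts, beside 5.11% and 5.76% over all genes. Against Pi16 fibroblasts, 10 were higher and 5 lower, beside 19.8% and 19.1%. Sfrp1, a secreted Wnt antagonist, was at 3.95 to 18.9 CPM in members against 174 to 260 CPM in Bmper fibroblasts. Of 21 tested Wnt genes, 2 were higher and 7 lower in members than in Bmper fibroblasts, beside 5.11% and 5.76% over all genes.

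Matrix genes separated the sets as well. Col14a1 was at 6.52 to 26.4 CPM in members and at 195 to 306 CPM in Bmper fibroblasts, and Lox and Loxl1, which cross-link collagen and elastin, were at 7.83 to 18.9 and 6.52 to 31.5 CPM against 112 to 174 and 47.7 to 193 CPM. Tnc, the matricellular protein tenascin C, was higher in members, at 55.4 to 217 CPM against 5.61 to 42.3 CPM, and was not called without the cells rich in pericyte UMIs (log2 0.54, adjusted p = 0.52). The metallothionein genes Mt1 and Mt2 were lower in members, with Mt2 at 222 to 397 CPM against 790 to 2405 CPM. Slit3 was at 171 to 439 CPM against 1334 to 1866 CPM. Among transcription factors, Meox1 was at 106 to 142 CPM in members, at 39.9 to 53.0 CPM in Bmper and at 0 to 3.65 CPM in Pi16 fibroblasts.

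Of 15 tested contractile genes, 8 were higher and 2 lower in members than in Bmper fibroblasts, where 5.11% of all genes were higher, and 14 were higher and 1 lower than in Pi16 fibroblasts, where 19.8% were. Des, the intermediate filament desmin, was at 437, 466, 401 and 441 CPM in members, at 144 to 241 CPM in Bmper and at 10.2 to 35.5 CPM in Pi16 fibroblasts. The difference from Bmper fibroblasts was 1.25 ± 0.21 on the log2 scale (edgeR adjusted p = 0.0016) and 1.29 without the cells rich in pericyte UMIs. Tpm2, a tropomyosin, was at 34.8 to 89.4 CPM against 10.3 to 43.0 CPM, and higher in members within each of the 4 libraries. Acta2 was at -0.22 on the log2 scale against Bmper fibroblasts with a Pdgfra UMI required, opposite in sign to the 1.89 in all members. Myh11, also a mural marker, was among the 8 and was not called by DESeq2 (adjusted p = 0.15) or with a Pdgfra UMI required (adjusted p = 0.083).

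Of these 15 contractile genes, 10 had a promoter in the RefSeq table used here (GRCm38.p6, 250 bases before to 50 after the start). The CArG box, the site of serum response factor at muscle genes, was searched as its strict form, which reads the same on both strands. It lay in the windows of 2 of the 10 genes, Myl9 and Cnn2, and in 1.63% of all 32851 windows. Acta2 and Des had no strict box in the window. Both sequences are shown because these genes, named after the search, were higher in members than in Pi16 fibroblasts (log2 1.08 for Myl9 and 0.76 for Cnn2). Capitals mark the box. The windows are chr2:156775214-156775513 and chr10:79988350-79988649, on the plus strand.
Myl9: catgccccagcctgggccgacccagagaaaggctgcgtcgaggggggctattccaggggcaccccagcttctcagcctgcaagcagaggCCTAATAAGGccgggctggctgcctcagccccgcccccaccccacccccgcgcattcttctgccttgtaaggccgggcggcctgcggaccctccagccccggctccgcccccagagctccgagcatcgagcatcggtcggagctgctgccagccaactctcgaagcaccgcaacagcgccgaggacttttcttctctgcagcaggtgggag
Cnn2: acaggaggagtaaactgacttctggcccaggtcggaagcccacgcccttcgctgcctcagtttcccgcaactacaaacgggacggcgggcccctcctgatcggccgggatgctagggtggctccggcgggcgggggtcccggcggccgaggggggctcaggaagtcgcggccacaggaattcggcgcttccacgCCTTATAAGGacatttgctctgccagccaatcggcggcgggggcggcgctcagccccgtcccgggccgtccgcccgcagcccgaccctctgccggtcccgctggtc
The box began 161 bases before the start of Myl9 and 56 bases before that of Cnn2. Myl9 was at -0.23 against Pi16 fibroblasts with a Pdgfra UMI required. A box in a sequence is a description and not a measured site.

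Genes whose level followed Postn most closely over the 12 sums were Casp8, Rflnb, Kcna6, Gpr176 and Ctsl, with Pearson r of 0.970, 0.941, 0.940, 0.928 and 0.925. The 12 sums come from 4 libraries and 3 gated sets, so they are not independent and no p is given. Postn helped to choose the sets, so genes higher in members follow it by construction. Casp8 was at 34.0 to 45.7 CPM in members, at 8.41 to 14.8 CPM in Bmper and at 10.2 to 17.9 CPM in Pi16 fibroblasts. Ctsl, which encodes the thymic protease cathepsin L, was at 1084 to 1185 CPM in members and at 632 to 779 CPM in the other sums.

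Whether the genotype difference in members was unlike that in Bmper fibroblasts was tested as an interaction. Of 11654 genes, 11 passed (0.0944%), 5 with a higher and 6 with a lower Z/Z effect in members. Mmp9 was at 168 and 93.9 CPM in WT and 160 and 287 CPM in Z/Z members, but at 42.1 and 44.8 CPM in WT and 7.50 and 3.91 CPM in Z/Z Bmper fibroblasts. The genotypes overlapped in members and not in Bmper fibroblasts. Gxylt2 was at 153 and 136 CPM in WT and 25.5 and 23.9 CPM in Z/Z members, and at 109 to 163 CPM in all 4 Bmper sums. Here the genotypes overlapped in Bmper fibroblasts and not in members. Without the cells rich in pericyte UMIs, 1 of the 11 genes passed, while the differences of log2 effects kept their sign in 10 of the 11, all but Trpm3. Mmp9 was at 3.51, Il1rapl1 at 5.76, Gxylt2 at -2.01, Map1b at -2.28 and Adgrd1 at -2.94 there, and none of these named genes passed.

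**Figure D5:**
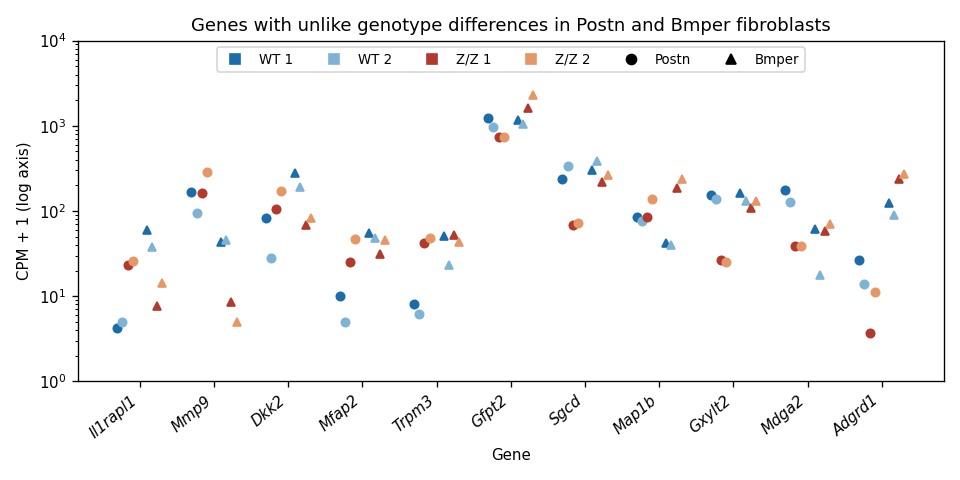
Levels (CPM + 1, log axis) of the 11 genes whose genotype difference was unlike in Postn (circles) and Bmper (triangles) fibroblasts, coloured by library. Gxylt2 falls from 153 and 136 to 25.5 and 23.9 CPM in Postn fibroblasts while its Bmper values overlap, at 109 to 163 CPM.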

How the data were processed

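Single-cell RNA-seq libraries were processed by the authors with Cell Ranger (7.01 in the submitters' notes, 7.0.1 in a file header), and the deposited filtered matrices hold raw UMI counts of 32285 features per barcode; of these, 32235 were placed on GRCm38. Raw matrices gave the empty-droplet profile (50 UMIs or fewer), and the deposited percent metrics gave the sequencing quality. The members and lists were chosen with earlier results of these data known. UMIs were summed per library and set in Python 3.11.15 (scanpy 1.11.5), leaving out 111 ribosomal and haemoglobin features. The sums, with TMM library sizes, were tested by edgeR 4.0.16 (quasi-likelihood, two-sided, Benjamini-Hochberg) in R 4.3.3; DESeq2 1.42.0 was an alternative. Scripts were tested on simulated data: in the genotype comparison (9487 genes), 48% of genes changed by 1 and 95% of those changed by 2 on the log2 scale were recovered. In the interaction (11099 genes), 8% and 68% were recovered. The changed genes were drawn from those of higher level and all genes had the same dispersion, so recovery of low-count genes was not tested. Doublets were kept; removing the top 3.9% by Scrublet score was an alternative, since its automatic threshold marked 2 to 74 cells per library. Genes named from the genotype comparison were the 10 with the largest log2 change in each direction among called genes without overlap and with at least 50 CPM in the higher group; against both sets, the 10 with the largest smaller change; from the interaction, the 6 with the smallest p; and from each list, up to 4 with the smallest p. Depth was 8468086 to 50705511 UMIs per library, and 835393 to 3024446 in the sums of members. Some genes that met these rules are not reported here.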

Additional observations from a re-analysis of the deposited data

Results flagged for a closer look

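The Z/Z effect differed between Postn and Bmper fibroblasts in 11 genes, by the interaction term in edgeR. Of these, 1 passed without the cells rich in pericyte UMIs. Differences of log2 effects in all members are given in brackets. The Z/Z effect was higher in Postn fibroblasts for Il1rapl1 (5.23), Mmp9 (3.31), Dkk2 (2.84), Mfap2 (2.56) and Trpm3 (2.50). It was lower for Gfpt2 (-1.41), Sgcd (-1.52), Map1b (-2.02), Gxylt2 (-2.24), Mdga2 (-2.63) and Adgrd1 (-3.33). Il1rapl1, a synaptic adhesion protein gene, was at 3.23 and 3.91 CPM in WT and 22.3 and 25.2 CPM in Z/Z Postn fibroblasts, and at 59.2 and 36.4 CPM in WT and 6.59 and 13.2 CPM in Z/Z Bmper fibroblasts. Dkk2, a Wnt modulator, overlapped between genotypes in Postn fibroblasts, at 81.8, 27.4, 104 and 171 CPM in WT 1, WT 2, Z/Z 1 and Z/Z 2, and was at 278, 188, 68.2 and 82.2 CPM in Bmper fibroblasts. Map1b, a microtubule-binding protein gene, also overlapped in Postn fibroblasts, at 82.9, 75.6, 84.3 and 136 CPM, against 41.0, 39.2, 187 and 233 CPM in Bmper fibroblasts.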

How the results depend on the processing

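The difference in share of Postn fibroblasts kept its sign in every alternative run; it was -17.9 points after thinning and -9.18 points as a share of all kept cells. Of the genotype counts (87 higher, 79 lower), there were 268 and 245 when low-count genes were not filtered, 43 and 34 without shared barcodes, 40 and 37 after thinning, and 56 and 38 without cells rich in pericyte UMIs. Leaving out 1 library at a time gave 60 to 208 higher and 49 to 190 lower; the highest counts came without Z/Z 2, and 49 without Z/Z 1. Deviations of samples with the same replicate number were not correlated (r = -0.0294 over 9960 genes). With 2 libraries a group this cannot exclude that the numbers pair them, and the main fit left the numbers out. With the replicate block 196 were higher and 159 lower. Against Bmper fibroblasts (545 higher, 614 lower), 327 were higher without cells rich in pericyte UMIs and 928 lower with no filter. With 1 library left out, 179 to 570 were higher and 285 to 671 lower, the fewest without Z/Z 1, with 230 and 346 without Z/Z 2. Against Pi16 fibroblasts (2112 higher, 2038 lower), 1376 were higher after thinning, and with 1 library left out 1405 to 2149 were higher and 1292 to 2161 lower, the fewest without Z/Z 1. Of the interaction calls (5 higher, 6 lower), there were 64 and 87 with no filter, 8 higher without shared barcodes, 3 and 1 without cells rich in pericyte UMIs, 3 lower with at least 5 UMIs of a set, and 10 lower with a Pdgfra UMI required. With 1 library left out, 3 to 17 were higher and 1 to 25 lower: 16 and 15 without WT 1, 3 and 1 without Z/Z 1, and 17 and 25 without Z/Z 2. A lone library is then assumed to vary like the others. Each count is of all genes that passed in that setting, so it does not tell how many main calls were kept. Without shared barcodes, 73 of the 166 genotype calls and 7 of the 11 interaction calls were kept. Without cells rich in pericyte UMIs, 54 of the 166 were kept, with 35 not tested there, and 1 of the 11. With a Pdgfra UMI required, Acta2 was at -0.22 against Bmper and Myl9 at -0.23 against Pi16 fibroblasts. The causes of these changes were not tested. DESeq2 called 64 higher and 62 lower by genotype. With 2 libraries a group, low-count genes and share differences had little power.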
